A study of Mus musculus with 20 samples.

Results

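Kit and Elf5 are genes tied to the luminal progenitors of the mouse mammary gland, and the chromatin around them is described here from 14 deposited lists of accessible regions. Every entry of these lists that shared at least 1 bp with either of 2 mm9 windows was taken: chr5:75870000-76155000 around Kit and chr2:103150000-103390000 around Elf5. This gave 113 of 311456 nuclear entries, with 39 in the Kit window of 285 kb and 74 in the Elf5 window of 240 kb. The windows follow gene position, and the genes were chosen with earlier results of these data known. The gene positions that came with them, near 75.971 to 76.053 Mb for Kit and near 103.25 to 103.29 Mb for Elf5, are approximate, and no mm9 annotation was at hand to check them. Distances below are counted from the lower of these positions, which for Elf5 is rounded to 10 kb.

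Kit encodes the receptor tyrosine kinase for stem cell factor and is used to sort luminal progenitors from other luminal cells. Elf5 encodes an ETS-family transcription factor that drives the alveolar, milk-secreting branch of the luminal lineage and is expressed in luminal progenitors. Hormone-sensing mature luminal cells normally have little of either. Accessible chromatin at and around such genes marks promoters and candidate enhancers, the sites where transcription factors can reach DNA.

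Accessibility was assayed with Tn5 transposase, which cuts and tags open DNA (ATAC-seq). FACS-sorted C57BL6J mammary cells gave 4 normal populations with 2 samples each: adult luminal progenitors, fetal mammary stem cells of embryonic day 18 (fMaSC), adult basal cells and adult mature luminal cells. Tumours grown in syngeneic C57BL6J mice from PY230, a single mouse mammary tumour line, gave 3 luminal samples with high and 3 with low SOX10, a transcription factor best known from neural crest cells. Each of 4 peak lists combines both samples of a population. A UAR and a URR list are named for each population, terms that the labels do not expand. Every luminal progenitor UAR met a luminal progenitor peak (100%), while 19.3% met a mature luminal peak. Conversely, mature luminal URRs met luminal progenitor peaks in 99.7% and mature luminal peaks in 20.6%. The lists were less distinct elsewhere: mature luminal UARs met luminal progenitor peaks in 42.7%, fMaSC URRs met fMaSC peaks in 44.2% and luminal progenitor URRs met luminal progenitor peaks in 51.9%. How UARs and URRs were called is not known, and an entry is given only as a member of its list. Each of these lists is attached to a single sample but named for a population, and was read as a list of that population. That sample also gave the peaks, so the lists are not independent of them. The last 2 lists name regions open and regions closed in SOX10-high PY230 cells. Their sample descriptions tie the open list to the luminal SOX10-high and the closed list to the luminal SOX10-low samples. The remaining samples were basal SOX10-high cells of PY230 and of spontaneous C3-1-TAg tumours (strain FVB), a bulk PY230 tumour and a PY230 culture. They were not analysed here. As no list keeps values per sample, there is no replicate error, no test between cell types and no known depth, and a missing peak means only that none was called at the authors' threshold.

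At Kit, accessible sites were called mostly in luminal progenitors, with a single peak in mature luminal cells. The window held 16 luminal progenitor peaks, 5 fMaSC peaks, 3 basal peaks and 1 mature luminal peak. Luminal progenitor peaks covered 3.76% of the window, fMaSC peaks 1.24%, basal peaks 1.10% and the mature luminal peak 0.179%. Within the gene interval itself 8 luminal progenitor peaks, 1 fMaSC peak, 1 basal peak and 0 mature luminal peaks were called. These counts were set beside 8349 tiles of 285 kb that hold at least 1 normal peak. At least 16 luminal progenitor peaks lay in 14.1% of tiles and at most 1 mature luminal peak in 24.2%, so both counts are common. At most 5 fMaSC peaks lay in 40.2% of tiles and at most 3 basal peaks in 36.1%. An excess of at least 15 luminal progenitor over mature luminal peaks was found in 13 tiles, or 0.156%. This comparison was added after the values were seen, at a gene chosen with earlier results known, so its share is a description only.

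**Figure D1:**
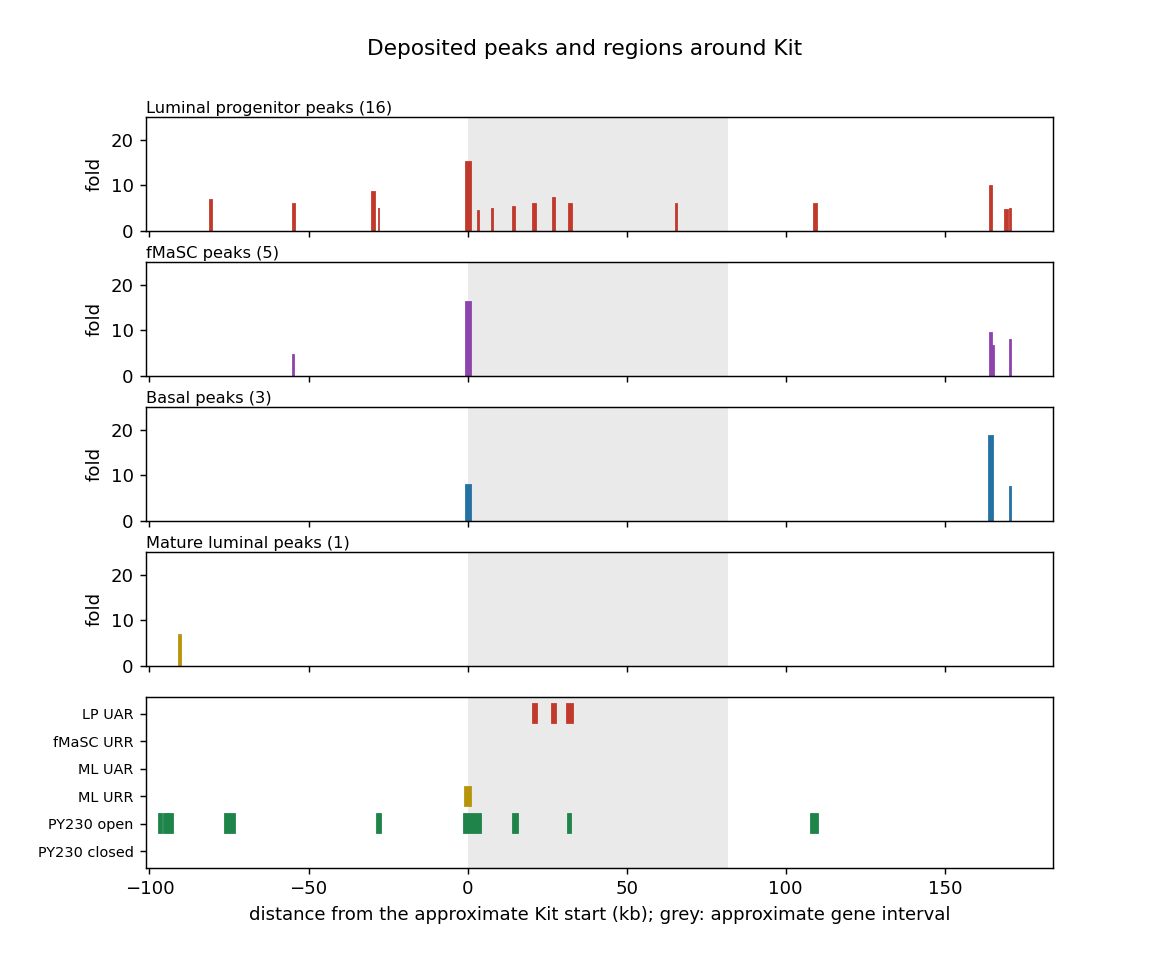
Entries of the deposited lists around Kit by distance from the approximate gene start in kb, with the authors' fold of each peak on the vertical axis of the upper 4 panels and regions of the UAR, URR and PY230 lists as boxes below (LP, luminal progenitor; ML, mature luminal; grey, approximate gene interval). Luminal progenitors have 16 peaks, 8 of them in the gene interval, mature luminal cells have 1 peak far upstream, and 10 PY230 regions are open and 0 closed.

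The site at the start of Kit carried a called peak in 3 of the 4 normal populations. The luminal progenitor peak from 75970368 to 75972021 was 1654 bp wide and had the highest fold of the window in that list, 15.2 over the peak caller's background (rank 7558 of 60030, above 86.9% of the list). The fMaSC peak there, from 75970589 to 75972176, had a fold of 16.2 and was the strongest of its list in the window (above 84.4% of the list). The basal peak, from 75970602 to 75971933, had a fold of 7.98, close to the middle of its list (above 48.5%). Mature luminal cells had no peak there. Folds belong to separately called lists and are not compared between cell types. The mature luminal URR list held the region from 75970201 to 75972200 with a score of 2294 (rank 358 of 1028). This was the only URR of any type in the window, while 0.904% of all 128797 merged regions of normal peaks met a mature luminal URR.

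The promoter of Kit is shown because this site spans the approximate gene start. RefSeq lists 2 Kit starts a few bases apart on the plus strand, and the 250 bases before the first, at chr5:75574737-75574986 of GRCm38.p6, read as follows. That build differs from the mm9 of the lists, so the sequence was matched by gene symbol and was not placed on the peaks. Capitals mark exact matches, on either strand, to 7 short motifs. The ETS motif was searched as GGAAG and the SOX motif as ACAAT. For the GATA factors the letters were AGATAA and for the RUNX factors TGTGG. The motif of AP-1 was written TGANTCA and that of the TFAP2 family GCCNNNGGC. E-boxes were taken as CANNTG.
Kit promoter: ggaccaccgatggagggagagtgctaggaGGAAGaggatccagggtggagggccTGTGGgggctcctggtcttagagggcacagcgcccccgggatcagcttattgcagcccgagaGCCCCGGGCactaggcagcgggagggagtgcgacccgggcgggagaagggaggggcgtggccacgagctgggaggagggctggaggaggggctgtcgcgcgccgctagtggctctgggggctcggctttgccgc
The stretch is 70.8% G and C, against a median of 52.4% over 32851 RefSeq promoters. It holds 1 ETS match at positions -221 to -217, counted back from the start, 1 RUNX match at -196 to -192 and 1 TFAP2 match at -134 to -126, none of which overlap. Of all promoters of this length, 64.1% hold the ETS letters, 49.3% the RUNX letters and 13.7% the TFAP2 letters. Letters of the SOX motif, present in 27.7% of promoters, of the GATA motif (9.99%), of AP-1 (6.75%) and of the E-box (66.2%) were not found in this window.

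Downstream of the start, a run of sites was called in luminal progenitors alone. After merging the peaks of all types, the Kit window held 17 regions, of which 12 had a luminal progenitor peak and no other, against 4.76% of merged regions in the genome. All 16 regions with a luminal progenitor peak lacked a mature luminal peak, a combination found in 15.5% of merged regions. Inside the gene interval, luminal progenitors alone had peaks centred 3.3, 7.8, 14.7, 21.0, 27.1, 32.4 and 65.8 kb from the start. Their folds lay between 4.36 and 7.27, and 1 of the 7 exceeded the list's median of 6.86. The first, from 75974126 to 75974459, had a fold of 4.36, and the next, from 75978616 to 75979083, one of 4.78. The peak from 75985414 to 75985954 had a fold of 5.20, and that from 76036552 to 76036953 one of 5.82.

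Of these sites, 3 in a row were also luminal progenitor UARs. Whether they are exonic or intronic was not determined, for want of an mm9 annotation. They lay from 75991501 to 75992700 with a score of 993 (rank 188 of 306), from 75997501 to 75998800 with 1725 (rank 90) and from 76002201 to 76004200 with 1147 (rank 161). The peaks inside them were 949, 787 and 860 bp wide, with folds of 5.82, 7.27 and 5.82. So 3 of 16 luminal progenitor peaks in the window met such a UAR, whereas 0.583% of all luminal progenitor peaks do. Tiles of 285 kb with at least 3 of these UARs numbered 3 in the genome, or 0.0359%, and the one with most, 4, overlapped the Kit window. No UAR of another type and no luminal progenitor URR lay in the window.

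Upstream of the Kit interval, 3 of 5 merged regions had a luminal progenitor peak alone, and beyond its end 2 of 4 did. The upstream peaks lay from 75889968 to 75890578 with a fold of 6.86, from 75916192 to 75916632 with 5.82, from 75941026 to 75941938 with 8.52 and from 75943032 to 75943231 with 4.99. Only the second met a peak of another type, an fMaSC peak with a fold of 4.56. The sole mature luminal peak of the window lay further out, from 75880437 to 75880947, with a fold of 6.73 (above 34.1% of its list). Beyond the gene, a luminal progenitor peak from 76080032 to 76080682 had a fold of 5.82 and stood alone. By contrast, the site 164.7 kb from the start, from 76135031 to 76136444, was shared. Its folds were 9.77 in luminal progenitors, and 9.37 and 6.58 in 2 fMaSC peaks. Basal cells had their strongest peak of the window there, with a fold of 18.5. A smaller site at 170.6 kb, from 76141346 to 76141953, had folds of 4.78 in luminal progenitors, 7.85 in fMaSC and 7.33 in basal cells. Between them, 169.4 kb from the start, luminal progenitors alone had a peak from 76139947 to 76140849 with a fold of 4.57. In the RefSeq genes of GRCm38.p6, Kit lies between Pdgfra and Kdr, which encode other receptor tyrosine kinases. The sites far from Kit cannot be assigned to any of these genes from the lists.

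Most of the luminal progenitor peaks counted at Kit were weak by fold, as were those at Elf5. In all, 5 of the 16 at Kit reached the median fold of their list, and so did 5 of 16 at Elf5. With peaks at or above the median alone, the Kit window held 5 luminal progenitor and 0 mature luminal peaks. With 30015 strongest peaks from each list the window held 4 luminal progenitor and 0 mature luminal peaks, and 2 regions had a luminal progenitor peak alone.

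In PY230 tumours, regions listed as open in SOX10-high cells were dense around Kit. The window held 10 open and 0 closed regions. Of the 8349 tiles, 1 held as many as 10 open regions, 0.0120% of all, and that tile itself overlapped the Kit window. The 285 kb next to the window on the left held 0 open regions and 1 closed region, and those on the right 2 open and 0 closed.

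The widest of these regions covered the start of Kit. It ran from 75969901 to 75975100, 5200 bp, with a score of 113 (rank 312 of 3208), and was the rank 13 region of the list by width. It took in the shared start site, the mature luminal URR and the luminal progenitor peak 3.3 kb downstream. The highest score of the window, 150 (rank 170), belonged to the region from 76078901 to 76081100, over the luminal progenitor peak 109.4 kb from the start. Further open regions lay over luminal progenitor peaks from 75942501 to 75943700 with a score of 53.4, from 75985301 to 75986900 with 36.3 and from 76002501 to 76003600 with 43.2. The last of these met 1 of the 3 luminal progenitor UARs. In all, 6 of the 16 regions with a luminal progenitor and no mature luminal peak were open in SOX10-high cells, against 7.51% of such regions in the genome. Of all 17 merged regions in the window, 6 were open, against 1.88% in the genome.

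The other 5 open regions met no normal peak. They formed 2 groups upstream of Kit. The first lay from 75874101 to 75875100 with a score of 34.5, from 75875601 to 75876700 with 54.5 and from 75876901 to 75878300 with 95.0 (rank 446 of 3208). The second lay from 75894701 to 75896100 with a score of 29.0 and from 75896401 to 75898000 with 33.3. In the whole open list 33.2% of regions met no normal peak, beside 5 of 10 here. A luminal progenitor peak was met by 48.7% of that list, and here by the 5 regions described before these, a similar share. When a merged region had to hold at least 50% of the PY230 region, 1 of 17 was open in place of 6. The merged regions that dropped out were too narrow to hold that share, so this count follows from widths.

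At Elf5, the window as a whole did not single out luminal progenitors. The window held 16 luminal progenitor peaks, 11 fMaSC peaks, 18 basal peaks and 17 mature luminal peaks. Luminal progenitor peaks covered 3.84% of it, fMaSC peaks 2.88%, basal peaks 4.47% and mature luminal peaks 3.68%. Of 9749 tiles of 240 kb, 9.63% had at least 16 luminal progenitor peaks and 8.49% at least 17 mature luminal peaks. At least 18 basal peaks lay in 14.5% of them and at least 11 fMaSC peaks in 30.2%. In the approximate gene interval 6 luminal progenitor, 5 fMaSC, 3 basal and 3 mature luminal peaks were called. Over the whole window the counts thus do not set luminal progenitors apart, although the gene is known as one of that population. Inside the interval, 6 of 8 merged regions had a luminal progenitor peak and 3 had a mature luminal peak, with 0 that had the mature luminal peak alone of the 2. Upstream of it, 7 of 13 merged regions had a luminal progenitor peak and 10 a mature luminal peak. Downstream, 2 of 9 had a luminal progenitor peak and 4 a mature luminal peak. Of all merged regions in the genome, 44.4% have a luminal progenitor peak and 45.9% a mature luminal peak. With so few regions on each side, no pattern by position is drawn from these counts. No luminal progenitor UAR or URR lay in the window.

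**Figure D2:**
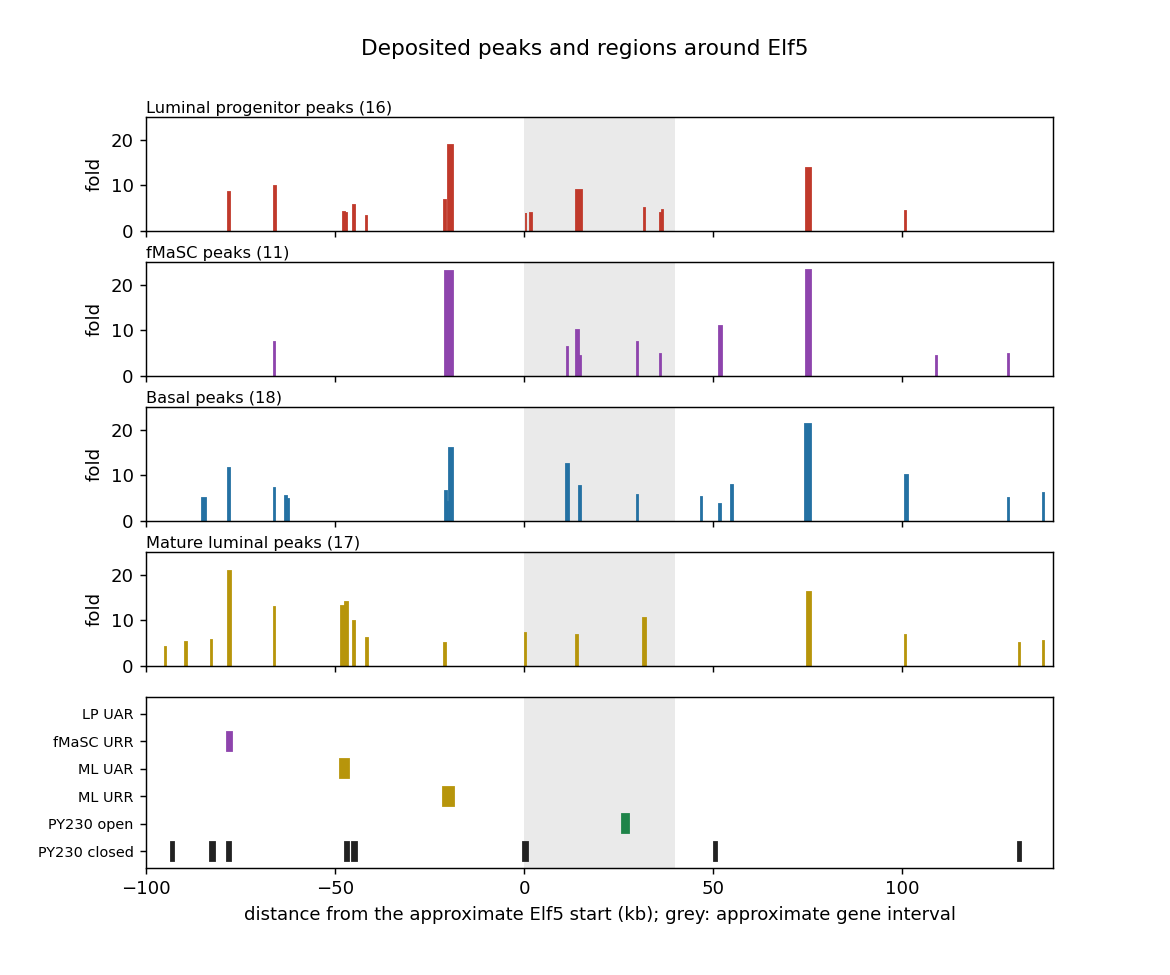
Entries around Elf5 by distance from the approximate gene start in kb, drawn as for Kit, with the authors' fold of each peak on the vertical axis of the upper panels (LP, luminal progenitor; ML, mature luminal; grey, approximate gene interval). All 4 populations have 11 to 18 peaks, 1 PY230 region is open and 8 are closed.

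The 30 merged regions at Elf5 fell into many combinations. Peaks of all 4 types met in 4 regions, against 21.7% of merged regions in the genome. Luminal progenitor and mature luminal cells alone shared 6 of the 30, where 3.17% of merged regions in the genome have this combination. Basal and fMaSC cells alone shared 4, beside 9.63% in the genome. Luminal progenitors had 2 regions to themselves, beside the 4.76% given above, and fMaSC had 1, beside 13.5%. Basal cells alone had 5, beside 15.5%, and mature luminal cells alone 4, beside 12.2%. A luminal progenitor peak without a mature luminal peak was found in 3 of the 30 regions, beside 15.5% of merged regions in the genome. The reverse was found in 5, beside 17.0% in the genome. The 3 regions with a luminal progenitor and no mature luminal peak all lay in the gene interval and were weak. They lay from 103251597 to 103251983 with a fold of 3.95, from 103285983 to 103286409 with 3.95 and from 103286637 to 103286892 with 4.57. The second of them also had an fMaSC peak with a fold of 4.81.

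**Figure D3:**
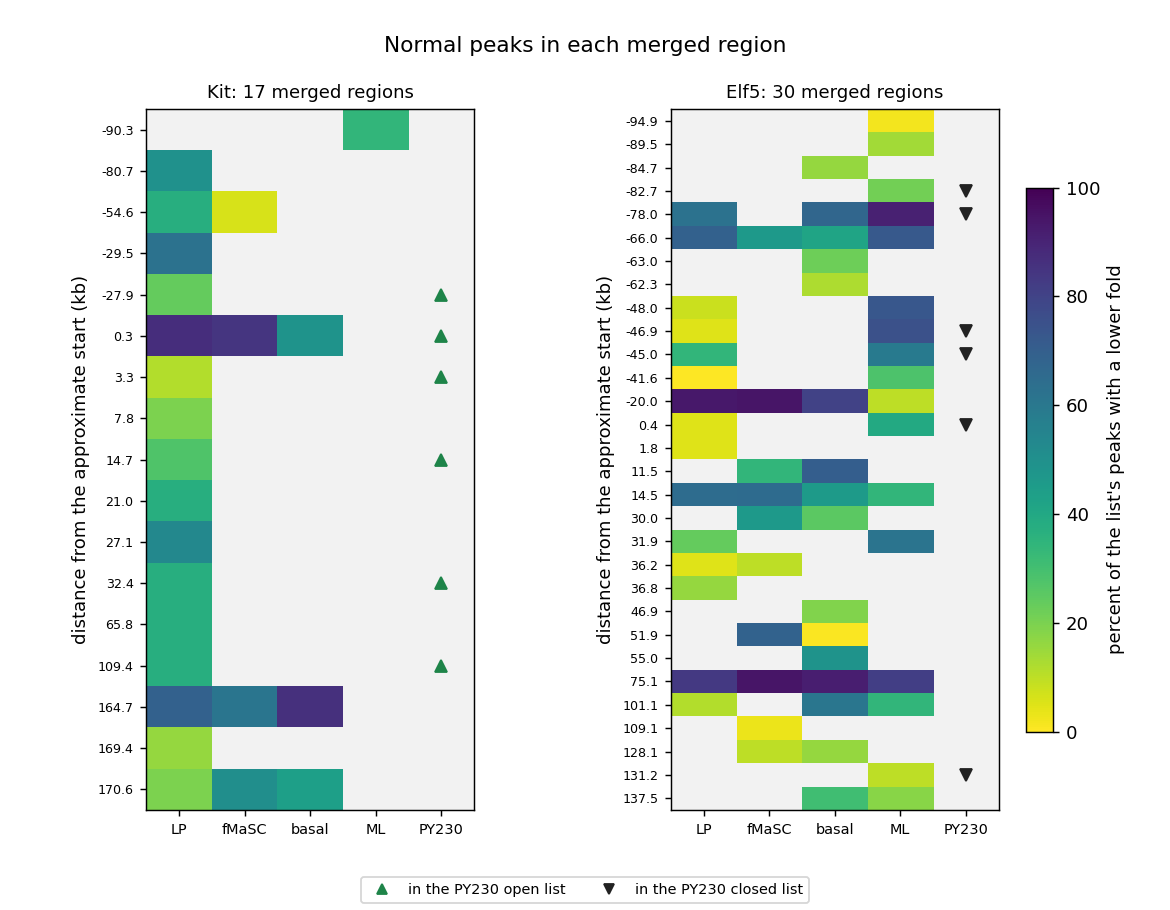
Merged regions of normal peaks at Kit and Elf5, 1 row per region in order of distance from the approximate gene start in kb; colour gives the percent of peaks in the same list with a lower fold, pale cells have no peak, and triangles mark overlap with the PY230 open (up) or closed (down) list (LP, luminal progenitor; ML, mature luminal). At Kit 12 of 17 regions have a luminal progenitor peak alone and 6 are open, while at Elf5 the 30 regions mix all types and 6 are closed.

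A site 20 kb upstream of Elf5 was the strongest luminal progenitor site of the window. Its merged region ran from 103228783 to 103231190. The leading luminal progenitor peak, from 103229879 to 103231166, had a fold of 18.9 (rank 3802 of 60030, above 93.4% of its list). A single fMaSC peak of 2143 bp covered most of the region with a fold of 23.0 (above 94.2%), and the highest of 3 basal peaks had a fold of 16.0 (above 80.2%). In mature luminal cells, a peak of 455 bp with a fold of 4.98 (above 10.0%) covered only part of it, at its lower end. The whole site was a mature luminal URR, from 103228601 to 103231400, with a score of 1004 (rank 737 of 1028). Each window thus held 1 mature luminal URR, at Kit over the approximate start and at Elf5 upstream of it.

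Both adult luminal types shared a cluster of 4 sites further upstream, with luminal progenitor peaks lower in their own list than mature luminal peaks in theirs. Of these, 2 lay in a mature luminal UAR from 103201201 to 103203700 with a score of 6133 (rank 133 of 3282). Luminal progenitor peaks there were near the bottom of their list, with folds of 4.16 (above 7.98% of the list) and 3.95 (above 4.76%). The mature luminal peaks had folds of 13.2 and 13.9. So 2 of 17 mature luminal peaks in the window met a UAR of their type, against 6.12% of all mature luminal peaks. Close by, the sites from 103204717 to 103205283 and from 103208186 to 103208617 had folds of 5.61 and 3.33 in luminal progenitors, and of 9.96 and 6.23 in mature luminal cells. Neither fMaSC nor basal cells had a peak at any of these 4 sites. The strongest mature luminal peak of the window, from 103171574 to 103172447 with a fold of 20.9, was shared with luminal progenitors (8.52) and basal cells (11.6). The same site was the only fMaSC URR in the windows, from 103171401 to 103172800, with a score of 1955 (rank 59 of 242), and fMaSC had no peak there.

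Of the 8 merged regions within the Elf5 interval, 3 were those with a luminal progenitor and no mature luminal peak. Among the others, 1 site was common to all types, 2 were called in both adult luminal types alone and 2 in fMaSC and basal cells alone. The common site ran from 103263678 to 103265325, with top folds of 8.94 in luminal progenitors, 10.1 in fMaSC, 7.54 in basal cells and 6.73 in mature luminal cells. Near the approximate start, from 103250245 to 103250637, the luminal progenitor peak had a fold of 3.95 and the mature luminal peak one of 7.22. The pair shared another site from 103281592 to 103282156, with folds of 4.99 (luminal progenitors) and 10.5 (mature luminal cells). In turn, fMaSC and basal cells shared a site from 103261212 to 103261861, with folds of 6.33 in fMaSC and 12.5 in basal cells. They also shared one from 103279893 to 103280193, with folds of 7.34 in fMaSC and 5.60 in basal cells. Neither luminal population had a peak at either of these.

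RefSeq gives Elf5 2 starts on the plus strand, which lie kilobases apart, unlike those of Kit. The 250 bases before each are shown because sites in the gene interval differ between populations. They are at chr2:103411848-103412097 and chr2:103423818-103424067 of GRCm38.p6, matched by symbol and not placed on mm9. Sites were placed from the approximate start alone, so which of them lie near the second start was not determined. Capitals mark the same 7 motifs.
Elf5 promoter 1: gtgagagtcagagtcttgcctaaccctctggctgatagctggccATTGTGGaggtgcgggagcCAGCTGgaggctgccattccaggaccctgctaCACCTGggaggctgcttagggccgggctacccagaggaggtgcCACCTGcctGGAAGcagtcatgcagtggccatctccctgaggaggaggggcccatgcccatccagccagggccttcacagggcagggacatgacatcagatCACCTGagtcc
Elf5 promoter 2: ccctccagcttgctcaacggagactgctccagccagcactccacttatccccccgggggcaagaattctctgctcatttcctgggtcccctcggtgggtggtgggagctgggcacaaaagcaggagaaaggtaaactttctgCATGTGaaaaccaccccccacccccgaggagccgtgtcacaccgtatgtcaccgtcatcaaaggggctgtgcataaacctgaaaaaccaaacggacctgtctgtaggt
The first is 62.8% and the second 56.8% G and C. The first holds 1 ETS match at -103 to -99, 4 E-box matches at -187 to -182, -155 to -150, -112 to -107 and -11 to -6, and a SOX match on the minus strand at -206 to -202 that overlaps a RUNX match at -204 to -200. The second holds 1 E-box match, at -108 to -103, and none of the other letters. E-box letters occur in 66.2% of all promoters of this length. Such matches describe letters only.

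Downstream of the interval, the strongest shared site lay 75.1 kb from the start, from 103324263 to 103325980. It had folds of 13.7 in luminal progenitors, 23.3 in fMaSC, 21.3 in basal cells and 16.2 in mature luminal cells. In GRCm38.p6, Elf5 lies between Ehf, another ETS-family gene, and Cat, which encodes catalase, and which gene this site belongs to was not determined. The site 101.1 kb from the start had folds of 4.36 in luminal progenitors, 10.1 in basal cells and 6.73 in mature luminal cells. At 51.9 kb, a site had folds of 10.9 in fMaSC and 3.66 in basal cells, and at 128.1 kb another had folds of 4.81 in fMaSC and 4.96 in basal cells. A site from 103183704 to 103184341, upstream, was called in all types, with folds of 9.77 in luminal progenitors, 7.34 in fMaSC, 7.11 in basal cells and 13.0 in mature luminal cells. The single site of fMaSC alone lay at 109.1 kb with a fold of 4.30. At 137.5 kb, basal cells had a fold of 6.04 and mature luminal cells one of 5.48. Sites with a peak in basal cells alone lay from 103164789 to 103165858, from 103186691 to 103187366, from 103187595 to 103187872, from 103296837 to 103297043 and from 103304699 to 103305238, with folds of 4.74 to 7.98. The other mature luminal sites, from 103154965 to 103155173, from 103160338 to 103160663, from 103167122 to 103167522 and from 103381106 to 103381338, had folds of 4.23 to 5.73.

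In PY230 tumours, the Elf5 window held mostly regions listed as closed in SOX10-high cells. It had 1 open and 8 closed regions. At least 8 closed regions lay in 1.93% of the 240 kb tiles, and at least 1 open region in 21.9%. The neighbouring 240 kb held 2 open and 0 closed regions on the left and 1 open and 1 closed on the right. Of the 8 closed regions, 6 met a mature luminal peak, beside 83.1% of the whole closed list. The highest score, 291 (rank 3796 of 15108), lay from 103171501 to 103172500, over the strongest mature luminal peak. The next, 279, lay from 103202601 to 103203600 inside the mature luminal UAR. A closed region near the approximate start, from 103249801 to 103251000, had a score of 84.1. Others lay from 103166801 to 103168300 with 238, from 103204401 to 103205700 with 96.8 and from 103380801 to 103381500 with 218. The 2 without any normal peak lay from 103156501 to 103157300 with 117 and from 103300301 to 103301000 with 57.2.

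Of the 30 merged regions at Elf5, 6 were closed, against 11.0% in the genome, and 0 were open. Among the 17 with a mature luminal peak 6 were closed, against 22.3% of such regions in the genome. None of the 3 regions with a luminal progenitor and no mature luminal peak was in either PY230 list. The site 20 kb upstream, strong in luminal progenitors, fMaSC and basal cells, and the common site in the gene were also in neither list. The single open region, from 103275801 to 103277800 within the gene interval, had a low score of 25.0 (rank 2986 of 3208) and met no normal peak.

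**Figure D4:**
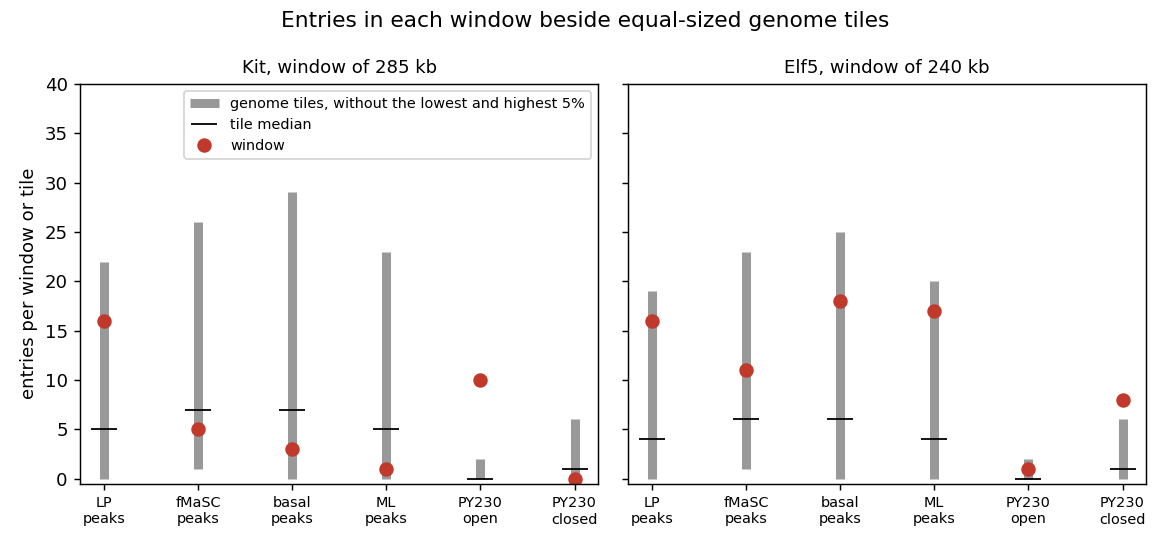
Number of entries in each window (red) beside tiles of the same length across the genome that hold at least 1 normal peak (black dash, median; grey bar, range without the lowest and highest 5% of tiles), for the 4 peak lists and the 2 PY230 lists (LP, luminal progenitor; ML, mature luminal). The 10 open regions at Kit and the 8 closed ones at Elf5 lie above the grey range, and the peak counts of both windows lie within it.

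Widening each window by 50 kb on both sides gave 23 luminal progenitor and 5 mature luminal peaks at Kit. At Elf5 it gave 27 luminal progenitor and 30 mature luminal peaks.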

How the data were processed

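Nuclei of sorted cells were transposed and sequenced in pairs of reads, per the labels' protocols. Tools listed in the submitters' processing notes, for mm9, are SICER, bedtools 2.20.1, MACS2 2.1.1, SAMtools 1.3.1, Bowtie 0.12.8 and FastQC, without their roles. Handling of duplicate reads and of the Tn5 cut offset, which can move or remove weak peaks, is not given in the sources used. The 4 peak lists give the fold of each peak, a ratio over the caller's background computed by the authors, with the samples of a type joined and a q-value of 0.001, per the list names. The other lists carry a score deposited by the authors, of unstated scale.

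Entries are 1-based: lists with edges on a 100 bp grid were moved by 1 base. The 3 mitochondrial peaks of each peak list were left out, and 19 autosomes and X were used. Peaks that overlapped or touched were merged into regions, and overlap means at least 1 bp. Tiles as long as a window were laid end to end from the first base of each chromosome, and those with no normal peak were left out. A rank of 1 is the highest value. No test was made, because no list keeps values per sample, and depth per sample is unknown. Every entry was accounted for, but some peaks only through their merged region, without their own position, width or fold. Those in the UAR, URR and PY230 lists, the 3 strongest peaks of each list, peaks near the gene starts and regions with a luminal progenitor and no mature luminal peak were to be given in full. The members, windows and this rule were chosen with earlier results of these data known, and the neighbouring windows, the excess of peaks and the shares of UARs and URRs with peaks were added after the values were seen. Alternatives changed the window, overlap, peak width, merging, fold and number of peaks. Promoters are from RefSeq (GRCm38.p6), and both genes matched by symbol. Analyses used Python 3.11.15, numpy 2.4.6 and pandas 2.3.3. On simulated data, overlap was tested against a direct comparison of every pair of intervals, and merging against bedtools 2.31.1.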

Additional observations from a re-analysis of the deposited data

How the results depend on the processing

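Of 132 repeats of a count, share or rank under the alternatives, 74 stayed within 1.5 times the reported value and 58 did not. Every count of midpoints in place of overlaps, and every rank with mitochondrial peaks included, stayed within that range. In the gene interval alone, Kit held 8 luminal progenitor and 0 mature luminal peaks and 3 open regions, and Elf5 held 6 luminal progenitor and 3 mature luminal peaks and 1 closed region. With the windows widened, mature luminal peaks numbered 5 at Kit, and Elf5 had 27 luminal progenitor and 30 mature luminal peaks. With peaks at or above the median fold, Kit held 5 luminal progenitor and 0 mature luminal peaks, 5 regions with a luminal progenitor and no mature luminal peak, 0 of the reverse and 3 with a luminal progenitor peak alone. Of its regions 1 was open, and luminal progenitor peaks covered 1.67% and mature luminal peaks 0%. At Elf5 the same setting left 5 luminal progenitor and 7 mature luminal peaks, 0 regions with a luminal progenitor peak alone, 3 closed regions, and coverage of 2.26% by luminal progenitor and 2.24% by mature luminal peaks. With 30015 peaks per list, Kit held 4 luminal progenitor and 0 mature luminal peaks, 4 regions with the first and not the second, 0 of the reverse and 2 with a luminal progenitor peak alone. Elf5 then held 5 luminal progenitor and 7 mature luminal peaks and 0 regions with a luminal progenitor peak alone. Merging all peaks within 500 bp left 1 such region at Elf5. When merged regions had to hold at least 50% of a PY230 region, 1 was open at Kit and 2 were closed at Elf5. The merged regions that dropped out at either gene were too narrow to hold that share. By width, the leading luminal progenitor peak at Elf5 ranked 9501. Smaller or wider windows, fold limits and a set number of peaks keep fewer or more entries by construction. A stricter overlap can only count the same number of regions or fewer. For the other settings the cause was not tested. No paired analysis was possible because each list pools samples, and for the same reason no replicate could be left out. Most luminal progenitor peaks at Kit and at Elf5 lay below the median fold of their list. Depth per sample, which sets how many such peaks are called, is unknown.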
